A study of Mus musculus with 2 samples.

Results

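Skin-homing and lymphoid chemokines, with the receptors that read them, were compared between 2 RNA-seq libraries of imiquimod-treated mouse ear skin. The set was fixed by name and holds 10 of the 34745 genes in the count table. It has 7 ligand genes (Ccl17, Ccl20, Ccl22, Ccl27a, Cxcl12, Cxcl13 and Cxcl14) and 3 receptor genes (Ccr4, Ccr6 and Ccr10). All 10 were matched to a gene identifier through their symbols. One library was labelled WT and the other KAT8-cKO, a conditional knockout of KAT8, a histone acetyltransferase that places acetyl groups on histone H4. Mice of both labels had received 30 mg of a 5% imiquimod cream on each ear daily for 3 days, and ears were taken on day 4. Imiquimod activates TLR7 and gives a psoriasis-like inflammation of the skin, so the comparison is between 2 treated specimens and holds no untreated skin. The promoter or cell type that drives the deletion, the strain, sex and age, and the number of animals per library remain unstated in the labels.

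Chemokines are small secreted proteins that guide leukocytes along gradients through receptors coupled to G proteins. In skin, CCL17 and CCL22 attract T cells that carry CCR4, CCL27 from keratinocytes attracts T cells that carry CCR10, and CCL20 from epithelium attracts dendritic cell precursors, IL-17-producing T cells and B cells that carry CCR6. CXCL13 organises B cell follicles through CXCR5, CXCL12 retains and positions leukocytes through CXCR4 and is scavenged by ACKR3, and CXCL14 is made steadily by normal epidermis.

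The libraries held 12179608 (WT) and 13727524 (KAT8-cKO) counts, so that 1 count was worth 0.0868 and 0.0689 CPM (counts scaled to a common total, here with factors from the trimmed mean of M values, TMM). With 1 library per label there were no replicates, the variation from animal to animal is unknown, and no test was run. Intervals are exact 95% intervals for counting error only, and reads carried no molecular identifiers, so duplicates of a molecule are not removed from them. Kat8 itself had 219 counts in the library labelled WT against 351 in that labelled KAT8-cKO, a CPM ratio of 1.27 (interval 1.07 to 1.51), so the targeted gene was not lower where the label places the knockout. Directions below therefore refer to library labels. Sex-linked RNA differed too, with 11891 and 6 counts of Xist and 0 and 838 counts of the Y-linked Eif2s3y. Sex of the tissue, label and specimen cannot be told apart. In whole tissue, fewer cells of a type and less RNA per cell cannot be told apart either.

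A gene was taken as measured at 1 CPM or more in either library and as higher or lower when its log2 ratio, computed on CPM + 1, reached 1 or -1, that is, 2-fold. A gene under 1 CPM in one library entered only through the other, where it is high, so counts over the lists below are descriptions. Of the 10 genes, 7 were measured, each in both libraries. Against WT, 3 of the 7 (Ccl22, Ccl20 and Cxcl14) were higher in the library labelled KAT8-cKO, where 4.56% of the 15240 measured genes were. Cxcl13 alone was lower, a direction that 8.63% of measured genes took. These shares over all measured genes are the background for the counts of every list below. The other 3, Ccr4, Ccl27a and Cxcl12, lay within 2-fold, and the median log2 ratio of the 7 was 0.87 beside 0.01 over all measured genes. Ccl17, Ccr6 and Ccr10 stayed under 1 CPM in both libraries.

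**Figure D1:**
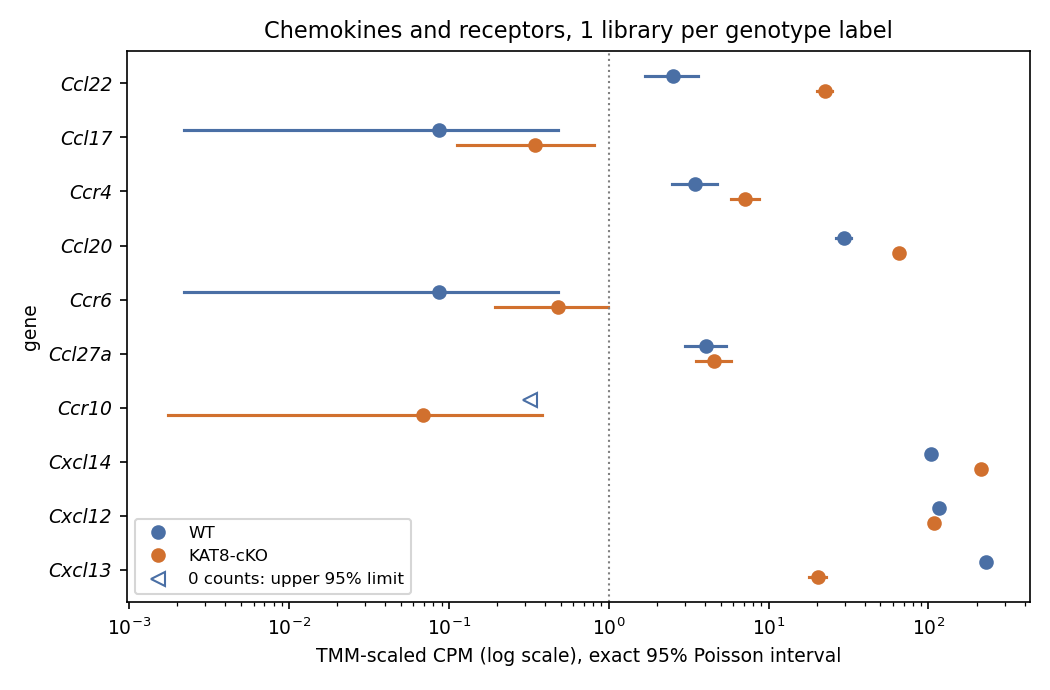
Levels of the 10 genes in the library labelled WT (blue) and the library labelled KAT8-cKO (orange), as scaled CPM on a log axis, with exact 95% Poisson intervals and a dotted line at 1 CPM; the open triangle is the upper limit for 0 counts. Ccl22, Ccl20 and Cxcl14 sit further right in the library labelled KAT8-cKO, Cxcl13 sits further left, and Ccl17, Ccr6 and Ccr10 lie left of the dotted line.

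The upstream stretches of the 4 genes past 2-fold are shown because these genes carry the differences described below. Each comes from the RefSeq promoter table for GRCm38.p6, ends before the annotated start of the gene and is written 5′ to 3′ along the gene's own strand. Promoters were listed for 9 of the 10 genes, all but Ccr10. Capitals mark a match to the NF-kB consensus in Ccl20 (chr1:83116516-83116765, plus strand), the letters TATAAA in Cxcl13 (chr5:95956689-95956938, plus strand), and each CG pair in Ccl22 (chr8:94745434-94745589, plus strand) and Cxcl14 (chr13:56296552-56296801, minus strand).
Ccl20: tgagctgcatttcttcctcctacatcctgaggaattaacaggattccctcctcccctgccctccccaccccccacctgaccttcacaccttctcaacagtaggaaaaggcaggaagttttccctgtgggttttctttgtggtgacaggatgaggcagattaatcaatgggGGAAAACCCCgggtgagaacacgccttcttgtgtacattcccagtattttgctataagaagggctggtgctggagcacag
Ccl22: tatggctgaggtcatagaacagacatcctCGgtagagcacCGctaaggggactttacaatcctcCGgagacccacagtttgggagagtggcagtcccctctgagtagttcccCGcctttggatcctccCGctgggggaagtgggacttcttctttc
Cxcl13: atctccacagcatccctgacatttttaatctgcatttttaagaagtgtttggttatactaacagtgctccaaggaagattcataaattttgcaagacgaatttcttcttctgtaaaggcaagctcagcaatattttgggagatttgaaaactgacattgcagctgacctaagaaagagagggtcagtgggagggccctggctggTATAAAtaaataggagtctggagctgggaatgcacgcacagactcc
Cxcl14: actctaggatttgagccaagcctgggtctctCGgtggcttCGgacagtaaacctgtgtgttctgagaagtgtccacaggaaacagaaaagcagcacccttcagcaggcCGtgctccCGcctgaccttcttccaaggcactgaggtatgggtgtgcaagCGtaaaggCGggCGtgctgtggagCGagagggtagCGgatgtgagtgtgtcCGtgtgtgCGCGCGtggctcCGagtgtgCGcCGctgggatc

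These 4 stretches differ in base composition. The 250 bases before the Cxcl14 start held 16 CG pairs at 59.6% G and C, a number of pairs that 25.4% of the 32817 promoter windows of that length reached. The Ccl20 and Cxcl13 windows held 2 each, at 51.2% and 42.0% G and C, and the median window held 6. Both strands were searched for the NF-kB consensus, which 3.90% of all windows hold, and among the 4 genes it was found in Ccl20, as GGAAAACCCC. TATAAA, held by 12.4% of windows, was found among the 4 in Cxcl13. Other motifs searched are not described here. Matches describe letters, and nothing was measured here on the binding of a factor.

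The CCR4 axis showed the largest upward difference of the set. Ccl22 (ENSMUSG00000031779), a ligand made mainly by dendritic cells and macrophages, had 29 counts (2.52 CPM) in the library labelled WT and 325 counts (22.4 CPM) in the library labelled KAT8-cKO. The counting intervals, 1.69 to 3.62 and 20.03 to 24.97 CPM, lie far apart. Its CPM ratio was 8.90 (interval 6.08 to 13.5) and its log2 ratio 2.73, and 0.289% of measured genes (44 genes) had a log2 ratio as high or higher. Ccl17 (ENSMUSG00000031780), the second CCR4 ligand, was at the edge of detection with 1 and 5 counts, a ratio of 3.97 whose interval, 0.444 to 188, covers both directions. Ccr4 (ENSMUSG00000047898), their shared receptor on skin-homing and regulatory T cells, had 40 counts (3.47 CPM) and 104 counts (7.17 CPM). The ratio was 2.06 (interval 1.42 to 3.05), but on the scale of CPM + 1 the log2 ratio of 0.87 stayed under the 2-fold rule. It passed that rule with plain CPM (1.001) and with a pseudocount of 0.1 CPM (1.02).

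Ccl22 and Ccl17 lie on chromosome 8, at 94745590 to 94751699 and 94810453 to 94812036 on the plus strand, 58.8 kb apart, with the fractalkine gene Cx3cl1 between them. Cx3cl1 had 127 and 148 counts and a log2 ratio of -0.10, so the difference at Ccl22 was not shared by this neighbouring chemokine gene. Among the 6 measured genes within 100 kb of Ccl22, log2 ratios ran from -0.23 to 1.11, with a median of 0.04. Pllp, a proteolipid gene, was the 1 gene of these past 2-fold, with 42 and 131 counts. Named here for their position, these neighbours give the local background, which lies well under the 2.73 of Ccl22.

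Per kilobase of exon, the scale on which genes can be compared with each other, Ccl22 and Ccr4 stood at almost the same level in the library labelled WT, 1.08 and 1.12 CPM per kb. In the library labelled KAT8-cKO they stood at 9.63 and 2.32 CPM per kb. The quotient of ligand over receptor thus went from 0.964 to 4.16. Ccl17 was at 0.169 and 0.670 CPM per kb, below Ccl22 in each library, although with 1 count in the library labelled WT its interval (0.00428 to 0.941) overlaps that of Ccl22 (0.725 to 1.55) there.

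Marker lists of the cells that make or read these ligands went in both directions. The Langerhans and dendritic cell list (16 genes) summed to 478 and 931 CPM, a ratio of 1.95, with 9 of 15 measured genes higher and 1, the lectin gene Clec10a, lower. Higher were Cd207 (63 and 200 counts), Flt3, Mgl2, Epcam, which is also expressed in glandular epithelium, and the class II presentation genes H2-Ab1, H2-Aa, H2-Eb1, Cd74 and Ciita. Within 2-fold were Zbtb46, Itgax and Cd209a, with ratios of 0.767, 1.18 and 0.836, and Cd83 and Fscn1. Flt3, with 9 and 58 counts, passed only through the library labelled KAT8-cKO. The most abundant gene of the list, Cd74, the class II invariant chain, went from 95.1 to 262 CPM. Fscn1, which bundles actin in mature dendritic cells, had 135 and 107 CPM. The regulatory T cell list (6 genes) summed to 32.6 and 70.1 CPM, a ratio of 2.15, with 3 of 5 measured genes (Il2ra, Tnfrsf18 and Tnfrsf4) higher. Its most abundant genes were Tnfrsf18, which encodes GITR, at 13.5 and 39.5 CPM, and Ikzf2, which encodes Helios, at 13.0 and 14.5 CPM. Foxp3, the defining factor of these cells, had 1 and 12 counts and was under 1 CPM in both libraries. The general T cell list (15 genes) summed to 36.5 and 50.6 CPM, a ratio of 1.39, with 3 of 13 measured genes (Cd3g, Lck and Zap70) higher and 10 within 2-fold. Its most abundant gene, the receptor constant gene Trbc2, had 16.8 and 12.5 CPM, and Zap70, Cd3d and Cd6 passed the filter only through the library labelled KAT8-cKO. Monocytes and macrophages, a further source of CCL22, had a list sum of 3200 and 1295 CPM (ratio 0.405), with 8 of 14 genes lower and none higher. The part of these cell types in the ratios of Ccl22 and Ccr4 was not tested.

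The list of CCL17 and CCL22 inducers holds cytokine genes, receptor genes and the factors Stat6, Irf4 and Klf4. None of 9 measured of 12 listed passed 2-fold in either direction (median -0.46). Of the cytokine genes in the list, only Tslp was measured. Il4 and Il13, the type 2 cytokine genes, had 2 and 5 counts and 0 and 1 counts, under 1 CPM in both libraries. Il4ra, the shared receptor chain for these cytokines, had 259 and 226 CPM, and Klf4, a factor of keratinocytes and myeloid cells, 320 and 188 CPM. Tslp, an epithelial cytokine gene named after its value was seen, had 40 and 95 counts and a log2 ratio of 0.75.

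**Figure D2:**
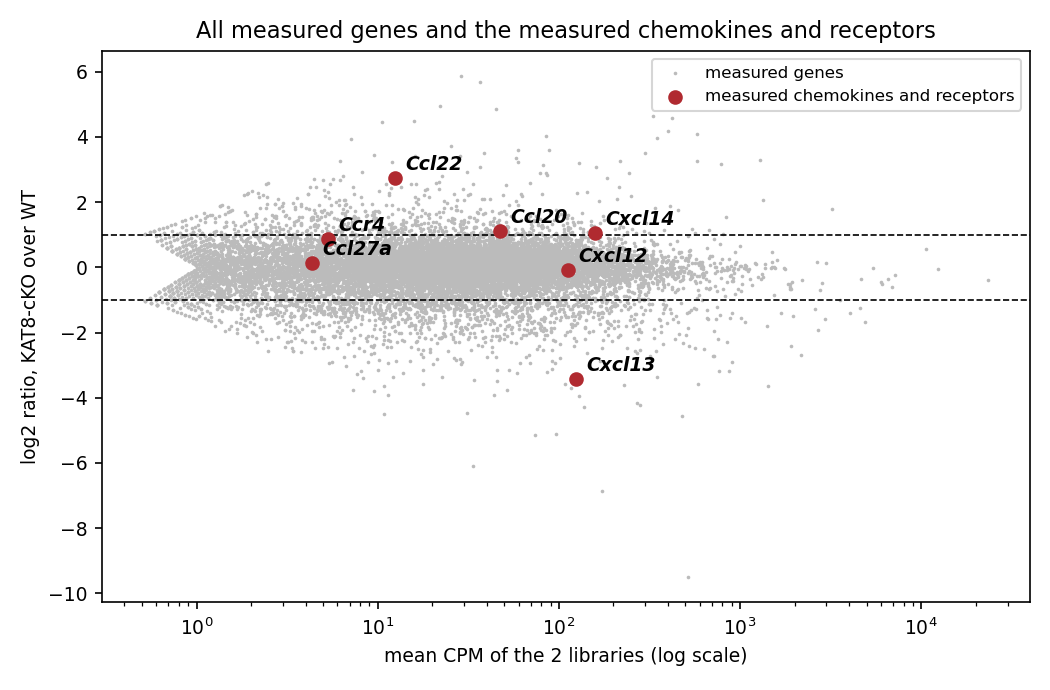
Log2 ratio (library labelled KAT8-cKO over library labelled WT, on CPM + 1) against mean CPM on a log axis for the 15240 measured genes (grey) and the 7 measured chemokines and receptors (red); dashed lines mark 2-fold. Ccl22 at 2.73 and Cxcl13 at -3.44 lie toward the edges of the cloud, while Ccl20 and Cxcl14 lie just above the upper line.

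Ccl20 (ENSMUSG00000026166, chromosome 1 from 83116766 to 83119167, plus strand), the sole chemokine ligand of CCR6, had 341 counts (29.6 CPM) in the library labelled WT and 950 counts (65.5 CPM) in the library labelled KAT8-cKO. Its ratio was 2.21 (interval 1.95 to 2.51) and its log2 ratio 1.12, a value that 3.61% of measured genes reached, so it lies close to the 2-fold line. The receptor side was hardly sampled. Ccr6 (ENSMUSG00000040899) had 1 and 7 counts, a ratio of 5.56 with an interval from 0.714 to 250, which covers both directions. Per kilobase, Ccl20 stood at 20.8 and 46.1 CPM, and Ccr6 at 0.0374 and 0.208 CPM, so ligand RNA exceeded receptor RNA by a wide margin in both libraries.

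Genes that induce CCL20 or regulate CCR6-bearing T cells went in both directions. Of 13 measured of 14 listed, 1 was higher and 1 lower (median 0.23). Il17f, an inducer of CCL20 in keratinocytes, had 20 and 153 counts (log2 ratio 2.08). Nfkbiz, which encodes a nuclear mediator of IL-17 signals, and Tnf, both named after their values were seen, had log2 ratios of -0.86 and -0.74. The gamma delta T cell list (9 genes) summed to 13.8 and 39.6 CPM, a ratio of 2.87, with 3 of 7 measured genes (Trdc, Tcrg-C1 and 5830411N06Rik) higher. Tcrg-C1 and 5830411N06Rik, at 0.434 and 0.694 CPM in the library labelled WT, passed the filter only through the other library, as did Trdv4 and Blk. Sox13 and Trdc, its most abundant genes, had 6.51 and 10.5 CPM and 3.21 and 9.23 CPM. Their part in the Ccl20 and Ccr6 values was not tested.

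Ccl27a (ENSMUSG00000073888, chromosome 4 from 41769467 to 41774247, minus strand), the keratinocyte ligand of CCR10, had 47 counts (4.08 CPM) and 66 counts (4.55 CPM). The counting of reads that match several genes is not stated, so these levels may be incomplete. The ratio of 1.11 has an interval from 0.755 to 1.66, which includes 1. A stretch of 8 exon bases, 0.337% of its exon length, is shared with Il11ra1 on the opposite strand, a gene with 697 and 1664 counts. Ccr10 (ENSMUSG00000044052), its receptor, had 0 counts in the library labelled WT against 1 in that labelled KAT8-cKO. Both are under the floor of 3 counts (0.260 and 0.207 CPM), so no fold is given. Over the same libraries the basal keratinocyte list (8 genes) summed to 22862 and 27567 CPM, led by Krt14 and Krt5, and the differentiated keratinocyte list (13 genes), led by Krt1 and Krt10, to 7866 and 2961 CPM. Ccl27a thus lay within 2-fold where the differentiated list had a ratio of 0.376 and the basal list 1.21.

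Cxcl13 (ENSMUSG00000023078, chromosome 5 from 95956951 to 95961068, plus strand), the B cell attractant that acts through CXCR5, had the largest difference of the set in either direction. It had 2640 counts (229 CPM) in the library labelled WT and 294 counts (20.3 CPM) in the library labelled KAT8-cKO, with intervals of 220 to 238 CPM and 18.01 to 22.7 CPM. The level was 11.3-fold lower (interval 10.02 to 12.8, log2 ratio -3.44), and 27 measured genes (0.177%) had a ratio as low or lower. Ranked by CPM, it stood at position 711 under the label WT and at position 8363 under the label KAT8-cKO among the 15240 measured genes.

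RNA of the receptor and of most B cell genes was sparse. Cxcr5, which shares exon bases with Bcl9l, had 13 and 8 counts, a ratio of 0.489 with an interval from 0.176 to 1.27. At 1.13 and 0.551 CPM, Cxcr5 passed the filter only through the library labelled WT. Of 10 B and plasma cell genes, 3 were measured and none passed 2-fold, and their sum was 24.9 and 22.3 CPM (ratio 0.896, interval 0.762 to 1.05). Ighm and Igkc, the immunoglobulin genes that make up most of that sum, had 130 and 152 and 102 and 86 counts. The B cell genes Ms4a1 and Pax5 had 4 and 3 counts and 3 and 1 counts. In the list of follicular dendritic and lymphoid stromal cells, a known source of CXCL13, Cr2 had 0 counts in both libraries and Fcer2a 0 and 1. The 2 most abundant genes of that list, Ltbr and Pdpn, are also expressed outside lymphoid tissue and had 108 and 144 CPM and 57.9 and 69.9 CPM. The monocyte and macrophage list, cells that can also make CXCL13, had the ratio of 0.405 given above and was led by Lyz2 with 940 and 376 CPM and Cd14 with 882 and 164 CPM. Skeletal muscle, adipocyte and red cell lists were lower in the same library as well, with ratios of 0.192, 0.122 and 0.0522. The part of these cells in the Cxcl13 ratio was not tested.

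Cxcl14 (ENSMUSG00000021508, chromosome 13 from 56288643 to 56296551, minus strand), the epidermal chemokine, had 1194 counts (104 CPM) in the library labelled WT against 3114 counts (215 CPM) in that labelled KAT8-cKO. The ratio was 2.07 (interval 1.94 to 2.22) and the log2 ratio 1.04, which 4.24% of measured genes reached. Counting error is small at this depth, yet the value lies close to the line, and under each of the 7 other scalings and pseudocounts tried it stayed above it (1.02 to 1.20). Of the epidermal lists, basal keratinocytes had a ratio of 1.21 (2 of 8 genes, Krt15 and Col17a1, higher) and differentiated keratinocytes one of 0.376 (8 of 13 lower). Hair follicle and sebaceous gland lists had sums of 1300 and 1891 CPM (10 genes, 6 of 9 measured higher) and 2365 and 9439 CPM (10 genes, 8 higher). Krt17 and Gata3 led the first by level and Scd1 and Krt79 the second, and Lef1, Lgr5 and Awat2 passed only through the library labelled KAT8-cKO. Krt17 alone had 1253 and 1735 CPM, most of the hair follicle sum, and lay within 2-fold (log2 ratio 0.47). That sum therefore describes mainly Krt17. The part of these structures in the Cxcl14 ratio was not tested.

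Cxcl12 (ENSMUSG00000061353, chromosome 6 from 117168535 to 117181367, plus strand), made by fibroblasts and endothelium, had 1334 counts (116 CPM) and 1570 counts (108 CPM). Its ratio of 0.934 has an interval from 0.868 to 1.01, and its log2 ratio changed sign with the scaling (-0.10 to 0.06), so no direction is given. The fibroblast list (13 genes, led by Col3a1 and Dcn) had a ratio of 1.24 and the endothelial list (11 genes, led by Pecam1 and Eng) 0.746, with 1 higher (Col1a1) and 3 lower genes (Dpt, Mfap5 and Pi16) in the first and none past 2-fold in the second. The receptors of this ligand differed from each other. Cxcr4, the signalling receptor, had 533 counts (46.3 CPM) and 155 counts (10.7 CPM), a ratio of 0.231 (interval 0.192 to 0.277). Ackr3, the scavenging receptor, named after its value was seen, had 650 and 931 counts and a ratio of 1.14 (interval 1.03 to 1.26). Per kilobase, Cxcl12 over Cxcr4 was 0.553 under the label WT and 2.24 under the label KAT8-cKO. The neutrophil list, cells that also carry CXCR4, summed to 14041 and 5083 CPM, a ratio of 0.362, led by S100a8 and S100a9. Its part in the Cxcr4 value was not tested.

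As a group, the 7 ligands differed more in make-up than in total when counts were not divided by exon length. Long genes weigh more in such shares and totals, and exon lengths ran from 514 bases (Ccl17) to 8176 bases (Cxcl12). Per kilobase, Cxcl12 stood at 14.2 and 13.2 CPM, Cxcl13 at 199 and 17.6 CPM and Cxcl14 at 56.7 and 117 CPM. The 7 ligands held 5586 counts (485 CPM) in the library labelled WT against 6324 counts (436 CPM) in that labelled KAT8-cKO. The ratio was 0.899 (interval 0.867 to 0.932). Cxcl13 took 47.3% of the ligand counts in the former (exact interval 45.9 to 48.6) and 4.65% in the latter (4.14 to 5.20). Cxcl14 went the other way, from 21.4% to 49.2%, Ccl20 from 6.10% to 15.0% and Ccl22 from 0.519% to 5.14%. Cxcl12 held 23.9% and 24.8%, with overlapping intervals. Without Cxcl13 the ratio of the ligand total was 1.62 (interval 1.55 to 1.70), so the sign of the group total rests on this gene.

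**Figure D3:**
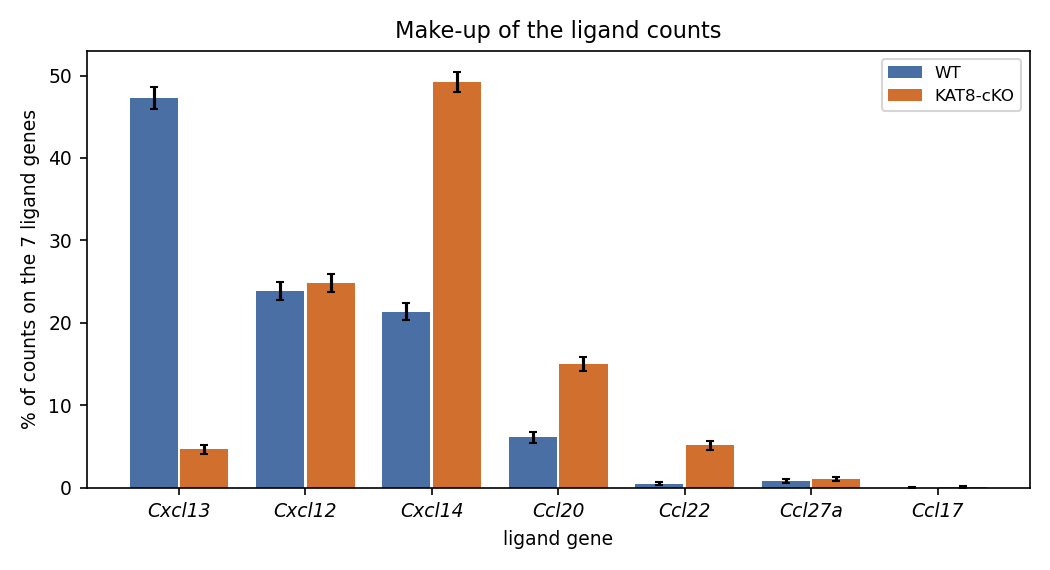
Share of the counts on the 7 ligand genes held by each gene, in % with exact 95% binomial intervals, in the library labelled WT (blue, 5586 counts) and the library labelled KAT8-cKO (orange, 6324 counts). Cxcl13 goes from 47.3% to 4.65% and Cxcl14 from 21.4% to 49.2%, while Cxcl12 stays near 24%.

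On the per kilobase scale the order of levels in the library labelled WT was Cxcl13 (199 CPM per kb), Cxcl14 (56.7), Ccl20 (20.8), Cxcl12 (14.2), Ccl27a (1.72), Ccr4 (1.12), Ccl22 (1.08), Ccl17, Ccr6 and Ccr10. Counting intervals of neighbours overlap from Ccl27a downward and are apart above it. In the library labelled KAT8-cKO the order was Cxcl14 (117 CPM per kb), Ccl20 (46.1), Cxcl13 (17.6), Cxcl12 (13.2), Ccl22 (9.63), Ccr4 (2.32), Ccl27a (1.91), Ccl17, Ccr6 and Ccr10. There the intervals of neighbours overlap from Ccr4 downward and are apart above it. Cxcl13 held the first place under one label and the third under the other, and Ccl22 the seventh and the fifth.

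Other chemokine genes, in lists chosen by role, went in both directions. Among 5 measured of 9 lymphoid and epithelial chemokines, 1 was lower and none higher (median 0.04). Ccl8, a ligand of CCR8 in the mouse, had 1228 and 399 counts (ratio 0.258, interval 0.230 to 0.289). Ccl19 and Ccl21a, the lymph node ligands of CCR7, had 0 counts in both libraries. How reads that match several gene copies were counted is not stated, so 0 counts need not mean absent RNA. Ccl28, the second CCR10 ligand, named after its value was seen, had 3 and 19 counts, a ratio of 5.03 (interval 1.48 to 26.5) and a log2 ratio of 0.87. Ccl28 passed the filter only through the library labelled KAT8-cKO. Of the 3 CXCR3 ligands, which answer interferon gamma and draw type 1 T cells, Cxcl9 and Cxcl10 were lower with 83 and 22 and 70 and 22 counts, and Cxcl11 had 1 and 2. Cxcl10 shares exon bases with Art3.

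Receptors on lymphocytes and dendritic cells split as well, with 2 higher and 2 lower of 9 measured in a list of 11 (median 0.15). Ccr7, which takes dendritic cells to lymph nodes, had 19 and 107 counts (ratio 4.47, interval 2.73 to 7.71). Cxcr6, a receptor of tissue-resident T cells, had 18 and 72 counts (ratio 3.18, interval 1.87 to 5.66). Lower were Cxcr4, given above, and Ccr9, a gut-homing receptor with 18 and 3 counts whose exons overlap those of 3 other genes. Ccr9, at 1.56 and 0.207 CPM, passed the filter only through the library labelled WT, where it is high. Of the 5 atypical receptors, most bind chemokines without classical signalling. Ackr4, a scavenger of CCR7 ligands and of CCL25, was higher with 44 and 194 counts (ratio 3.50, interval 2.51 to 4.97). Exon bases of Ackr4 are shared with Acad11. Ccrl2, which presents chemerin, was lower with 541 and 87 counts (log2 ratio -2.78).

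Adhesion genes used in skin homing had 2 higher and 2 lower of 12, all measured (median 0.40). Over all measured genes, 4.56% were higher and 8.63% lower. Fut7 passed the filter only through the library labelled KAT8-cKO. Itgae, the alpha chain of the integrin that holds T cells to epithelium, had 8 and 73 counts (ratio 7.24, interval 3.49 to 17.4) and passed only through the latter library, and Epcam, an adhesion molecule of Langerhans cells and glandular epithelium, 407 and 1452 counts (ratio 2.83). Vcam1 and Selplg, which serve leukocyte arrest and rolling, were lower, with 219 and 87 counts and 2004 and 1205 counts. In the signalling list 1 of 16 was higher and 4 lower (median -0.33). Rgs1 and Rgs2, which dampen G protein signals, and Rac2, a GTPase of leukocytes, had log2 ratios of -2.20, -1.02 and -1.38, and the receptor kinase gene Grk3 one of 1.16. The fourth lower gene, Arrb2, which encodes a beta-arrestin that ends receptor signalling, had one of -1.01.

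**Figure D4:**
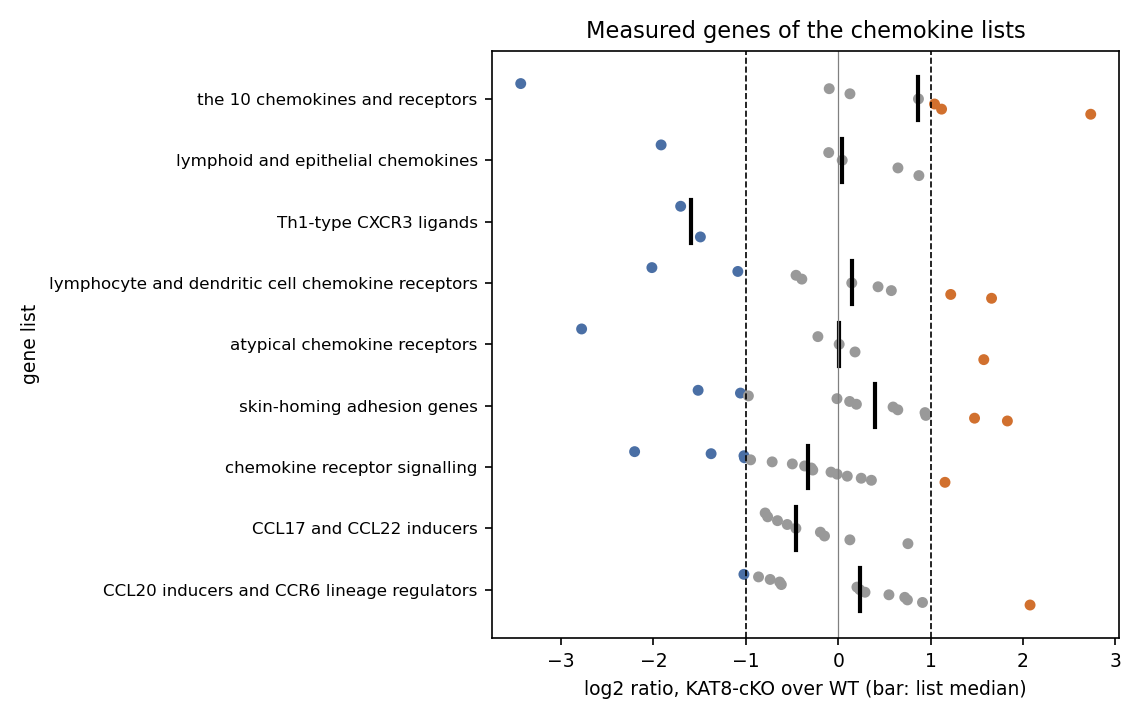
Log2 ratios (library labelled KAT8-cKO over library labelled WT, on CPM + 1) of the measured genes of the set and of the 8 other chemokine lists, 1 point per gene; orange points are at least 2-fold higher, blue at least 2-fold lower, and black bars are list medians. Every list but that of CCL17 and CCL22 inducers holds points past a dashed 2-fold line, and the CXCR3 ligands, with 2 measured genes, have both on the lower side.

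Across the 18 cell type marker lists, sums differed by up to 19.2-fold downward (red cells, led by Hbb-bs and Hba-a1) and 3.99-fold upward (sebaceous gland) in the library labelled KAT8-cKO. Muscle was led by Acta1 and Myh1, adipocytes by Fabp4 and Cfd, T cells by Trbc2 and Cd3g, and cartilage, with a ratio of 1.68, by Acan and Col9a3. Reads of the near-identical haemoglobin genes may be split between copies.

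**Figure D5:**
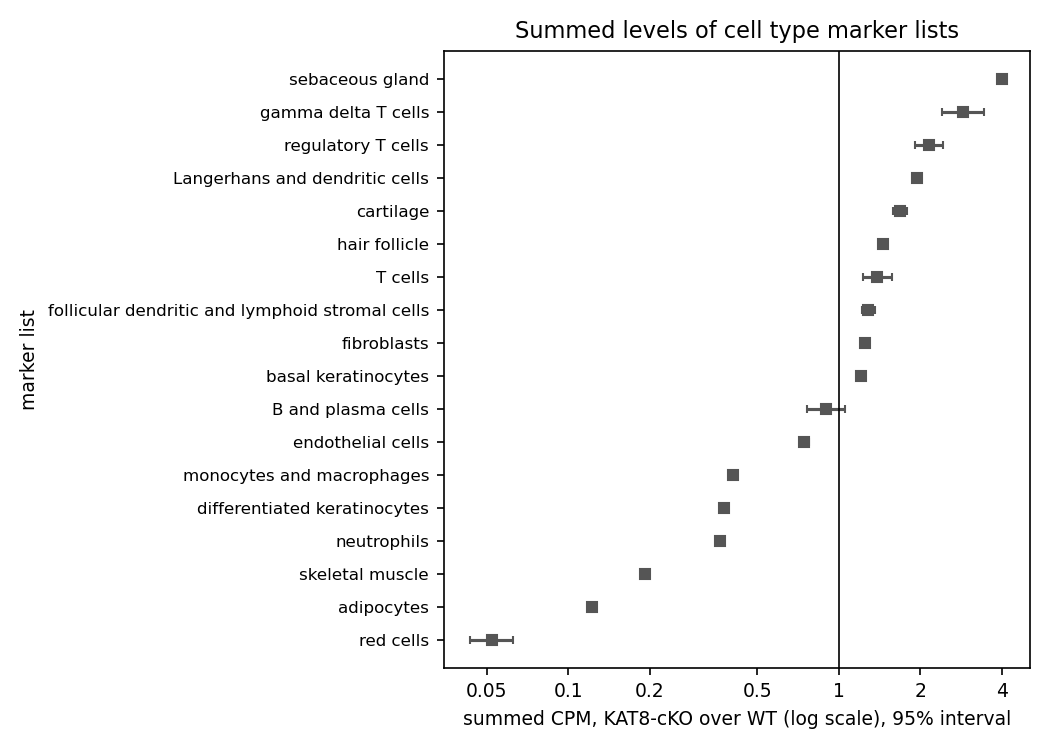
Ratio of the summed CPM of each cell type marker list (library labelled KAT8-cKO over library labelled WT, log axis) with exact 95% intervals for counting error. Lists run from red cells at 0.0522 to the sebaceous gland at 3.99, with dendritic, regulatory and gamma delta T cell lists right of 1 and monocyte, neutrophil and differentiated keratinocyte lists left of it.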

How the data were processed

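Polyadenylated RNA of ear skin was sequenced in 1 library per genotype label. The deposited table gives raw counts per Ensembl gene with no normalization, per the file headers and the values. Per the submitters' processing notes, HISAT2, StringTie 1.3.0, edgeR and the build mm10 were used. The counting tool, annotation release and strand setting are not stated in the sources used here, so reads in exons shared by genes of opposite strands cannot be told apart. Identifiers were paired with symbols, positions and exon lengths from GENCODE M21 (GRCm38), which named 34267 of 34745 genes.

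Counts were scaled with TMM factors from edgeR 4.0.16 (R 4.3.3), 0.946 for WT and 1.06 for KAT8-cKO. Log2 ratios used a pseudocount of 1 CPM, which understates differences of low genes. Ratios in the text are ratios of TMM-scaled CPM without a pseudocount, with Clopper-Pearson intervals (scipy 1.17.1). Levels have exact Poisson intervals. Plain CPM, where named, is CPM without TMM factors. With 1 library per label no test was run. The steps were tested on simulated Poisson counts with known changes.

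The 10 genes and the 26 other lists (8 of the pathway, 18 of cell markers) were chosen with earlier results of these data known. Named were all 10 genes and, from each pathway list, up to 4 genes past 2-fold by size, or the 2 most abundant, and from each marker list the 2 most abundant. Every other gene named, such as Foxp3, Il4, Cx3cl1, Tslp or Clec10a, was chosen after its values were seen. Some genes that the rule names are not reported here. Alternatives covered scaling, library total, pseudocount, filter and shared exons.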

Additional observations from a re-analysis of the deposited data

How the results depend on the processing

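No paired analysis was possible because there is 1 library per label. Under all 10 alternatives 1 gene of the set was lower, Cxcl13, and 3 were higher, except with plain CPM and with a pseudocount of 0.1 CPM, where 4 were. The median log2 ratio (0.87) was 1.001 with plain CPM, 0.99 without the 50 most abundant genes, 0.98 without mitochondrial, muscle, adipocyte and red cell genes, 1.02 and 0.52 with pseudocounts of 0.1 and 5 CPM, and 0.38 with no filter. Ccl22 ran from 1.87 to 3.10, Ccl20 from 1.03 to 1.28 and Cxcl13 from -3.49 to -3.21. Plain CPM moved the median of all measured genes from 0.01 to 0.16 and gave 6.33% higher and 6.94% lower genes. Depth limits Ccl17, Ccr6 and Ccr10, whose counts allow either direction.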
